A study of Mus musculus with 12 samples.

Results

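Adipocyte lipid genes were followed in cultured mouse bone marrow stroma that carried 1 inactive copy of Crebbp or of Ep300, or neither. The set was defined by name: Cd36, Cidec, Scd1 and Angptl4, together with Pparg, Cebpa, Fabp4, Adipoq, Lpl, Plin1, Cfd, Lep, Retn, Dgat2, Acsl1, Lipe and Pck1, and every probe set whose only gene symbol was one of these was kept. Of these 17 genes, 10 had a value, through 17 of the 3109 probe sets tested. Cd36 had 3 probe sets, Fabp4 had 4, Scd1 and Lpl had 2 each, and Cidec, Angptl4, Pparg, Adipoq, Retn and Lipe had 1 each. Cebpa, Plin1, Cfd, Lep, Dgat2, Acsl1 and Pck1 had no value in the table used here, which holds probe sets that vary between arrays, so nothing is said of them.

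There were 3 groups of 4 arrays: stroma from Crebbp+/- mice, from Ep300+/- mice and from Wild-type mice. All mice were C57BL/6 and 3-4 months old. In every group the marrow was grown for 2 weeks in M5300 medium, the resulting layer received 1500 cGy of radiation, and the medium was replaced, so the controls were irradiated too and no unirradiated stroma was part of the comparison. The labels name no driver or cell type for the mutations, and stroma of this kind is a mixed adherent layer rather than a pure cell type. Crebbp and Ep300 encode closely related histone acetyltransferases that serve as transcriptional coactivators, and the comparison asks what the loss of 1 copy of either does to these genes. The labels call the arrays biological replicates without naming animals or cultures, so p-values set a difference against the spread between these samples. In a bulk sample, fewer cells of a type and less RNA per cell cannot be told apart.

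Marrow fat cells arise from stromal precursors under the nuclear receptor PPARγ (Pparg), which switches on genes for fatty acid uptake, triglyceride storage and adipokines. Lipoprotein lipase (Lpl) frees fatty acids from circulating triglyceride, the scavenger receptor CD36 helps to take them up, FABP4 carries them inside the cell, SCD1 makes monounsaturated fatty acids, CIDEC enlarges lipid droplets and hormone-sensitive lipase (Lipe) breaks stored fat down again. ANGPTL4 is a secreted inhibitor of lipoprotein lipase and a PPAR target that also responds to fasting, glucocorticoids and low oxygen. Cd36 and Angptl4 are not restricted to adipocytes, since macrophages and capillary endothelium also express Cd36 and endothelial cells can express Angptl4.

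The 250 bases before the start site are shown for Cd36, the member for which both heterozygotes lay below wild type on every array, and for Adipoq and Cidec, which varied together from array to array. Sequences are from RefSeq on GRCm38.p6, written 5′ to 3′ on the strand of the gene, and capitals mark matches to the motifs searched. Of the 10 genes with a value, 6 had a promoter entry, with 10 windows in all; Angptl4, Scd1, Fabp4 and Lpl were not matched. The Cd36 window lies on the minus strand at chr5:17835897-17836146, the Adipoq window on the plus strand at chr16:23146286-23146535 and the Cidec window, the first of 2 for that gene, on the minus strand at chr6:113434765-113435014.
Cd36: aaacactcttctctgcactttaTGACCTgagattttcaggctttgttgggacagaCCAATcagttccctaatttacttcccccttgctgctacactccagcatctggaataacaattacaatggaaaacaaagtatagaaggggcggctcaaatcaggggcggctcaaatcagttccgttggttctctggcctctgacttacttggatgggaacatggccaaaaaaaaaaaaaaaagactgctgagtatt
Adipoq: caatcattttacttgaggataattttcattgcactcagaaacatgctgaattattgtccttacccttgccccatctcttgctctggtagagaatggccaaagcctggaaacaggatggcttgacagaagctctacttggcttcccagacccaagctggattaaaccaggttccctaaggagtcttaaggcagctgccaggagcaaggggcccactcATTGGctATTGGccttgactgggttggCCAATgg
Cidec: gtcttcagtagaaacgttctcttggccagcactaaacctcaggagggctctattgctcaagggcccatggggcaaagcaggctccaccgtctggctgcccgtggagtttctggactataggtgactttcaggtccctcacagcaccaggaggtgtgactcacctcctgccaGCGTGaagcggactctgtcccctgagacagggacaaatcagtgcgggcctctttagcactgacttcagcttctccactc

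The Cd36 window held AGGTCA, the core of nuclear receptor elements, read on the opposite strand at 228 to 223 bases before the start, and CCAAT at 195 to 191. Adipoq held CCAAT 3 times within 34 bases of the start, and Cidec held GCGTG, a core of hypoxia elements, at 79 to 75 in the window shown and 0 of the motifs in its second window. Among all 32851 windows of this length, 14.0% held AGGTCA, 33.8% held CCAAT and 28.2% held GCGTG on either strand. The full DR1 element of PPAR and its partner RXR was in 0.0335% of windows and in 0 of the 10 members' windows. Also searched on both strands were the cAMP response element TGACGTCA, the shorter core of that element TGACG (contained in it), the box TATAAA found near many start sites, the E-box spelled CACGTG and a second hypoxia core, spelled ACGTG, which the E-box contains. Shares of all windows that held them were 1.55%, 17.8%, 12.4%, 6.02% and 16.6% in that order, and the Cd36, Adipoq and Cidec windows shown held 0 of them. These matches describe letters in the windows and nothing about what binds there.

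Before the members, the table and the labels were checked. The Crebbp probe set averaged 7.74 in Crebbp+/- stroma, against 8.65 in Ep300+/- stroma and 8.52 in wild-type stroma, on the log2 scale on which all levels here are given. It fell by 0.78 against wild type (SE 0.20, limma adjusted p = 0.0372), and Ep300 had no value here. Of 9 adipocyte markers, 5 had a value (Adipoq, Cidec, Fabp4, Retn and Pparg), on single arrays between 4.21 and 14.34. Crebbp+/- arrays 1 and 3 stood apart from the other 10 in the Y-linked gene Eif2s3y, at 2.73 and 2.69, against 8.41 to 10.84 elsewhere. With that gene as a covariate, 0 of the 3109 probe sets were called in any comparison. Without those arrays, 4 were called in Crebbp+/- stroma against wild type and 2 between the heterozygotes, none of them a gene named here. Every call of a named gene made below in the fit of all 12 arrays without a block is therefore lost in both settings. Neither setting was combined with a block on the replicate number, so calls made only with that block were not tried in them. For Crebbp itself the difference from wild type was -0.84 with the covariate (adjusted p = 0.279) and -0.83 without the arrays (adjusted p = 0.246), and its call was kept in 3 of 12 fits that each left out 1 array, with adjusted p up to 0.129 without wild-type array 4. Over all probe sets the median log2 fold change of Crebbp+/- against wild type was 0.24, so a member near that value moved no more than the table did. Array medians lay between 7.98 and 8.43.

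Against wild type, Crebbp+/- stroma had more Angptl4 mRNA and less Cd36 mRNA, and no other member passed the test in the fit without a block. Angptl4 was 2.21-fold higher, and Cd36 was at 31.0% to 51.1% of the wild-type level by its 3 probe sets. The other 8 genes, among them Pparg, Adipoq, Fabp4 and Lpl, overlapped between Crebbp+/- and wild-type stroma in every probe set. Their arrays of 1 genotype ranged more widely than the genotype means, but so did those of Angptl4 in Ep300+/- stroma (1.16 against 1.14). Between Crebbp+/- and wild-type stroma 4 of the 17 probe sets were called at a limma adjusted p under 0.05, beside 6.18% of all probe sets tested, 1 of them higher (5.02% of all) and 3 lower (1.16% of all). This fit left out the replicate number, which pairs the arrays of these genotypes. Blocking on the replicate number called 26.1% of all probe sets. There the 4 stayed called (adjusted p = 0.00667 to 0.0119 for Cd36 and 0.0128 for Angptl4), Cidec was called too (adjusted p = 0.0411) and Pparg had an adjusted p of 0.0508. The 4 come from 2 genes, since the 3 Cd36 probe sets read the same gene. The median log2 fold change of the 17 was 0.11, against 0.24 over all 3109. All calls in this comparison were 156 higher and 36 lower; after quantile normalization they were 120 higher and 72 lower, and after centring each array on its median 125 higher and 72 lower.

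Among the uptake and transport genes, Cd36 set both heterozygotes apart from wild type on every array. Its probe set 1450883_a_at read 12.71, 12.88, 13.14 and 13.41 in Crebbp+/- stroma, 13.36, 13.13, 13.25 and 13.54 in Ep300+/- stroma, and 13.99, 14.19, 13.89 and 13.95 in wild-type stroma. The wild-type arrays were the 4 highest of the 12, and the heterozygote groups overlapped each other. Probe set 1423166_at read 11.46, 11.64, 11.82 and 12.27 in Crebbp+/- stroma, 12.38, 12.04, 11.99 and 12.29 in Ep300+/- stroma, and 13.12, 13.26, 12.72 and 12.92 in wild-type stroma. Probe set 1450884_at read 7.42, 6.94, 7.44 and 8.01 in Crebbp+/- stroma, 8.48, 7.87, 8.15 and 8.44 in Ep300+/- stroma, and 9.32, 9.49, 8.71 and 9.05 in wild-type stroma. In all 3 probe sets, no heterozygote array reached the lowest wild-type array. Between probe sets of Cd36 the levels correlated over the 12 arrays with r of 0.947 to 0.983, a description of 1 gene read 3 times.

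**Figure D1:**
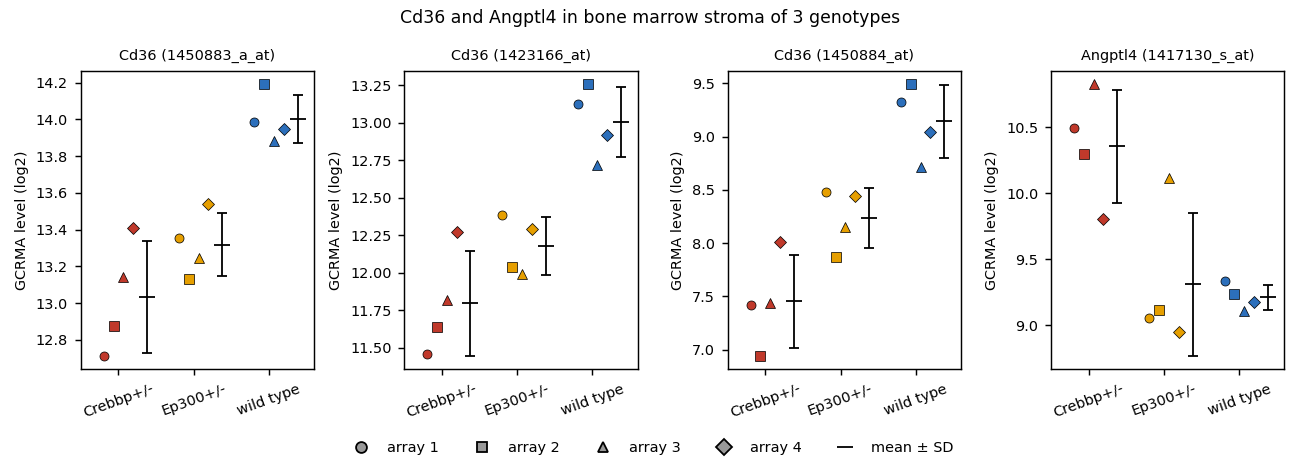
Level (GCRMA log2, y axis) of the 3 Cd36 probe sets and of Angptl4 on each array of the 3 genotypes; symbols give the array number and bars the mean ± SD of 4 arrays. All 4 wild-type arrays lie above all 8 heterozygote arrays for Cd36, and for Angptl4 the 4 Crebbp+/- arrays lie above the 4 wild-type arrays while Ep300+/- array 3, at 10.11, lies among the Crebbp+/- arrays.

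Cd36 fell in Crebbp+/- stroma against wild type by 0.97 ± 0.23 on the log2 scale for 1450883_a_at (± SE, limma adjusted p = 0.0293), by 1.21 ± 0.25 for 1423166_at (adjusted p = 0.0184) and by 1.69 ± 0.29 for 1450884_at (adjusted p = 0.0129). The groups of 4 did not overlap in any of the 3, for which the two-sided exact permutation p was 0.0286 each, the smallest that 4 against 4 arrays allow. Among all probe sets, 8.46% were lower without overlap in this comparison. The size of the fall differed with the probe set, from 51.1% of the wild-type level for 1450883_a_at to 31.0% for 1450884_at. With Eif2s3y as a covariate the differences were -0.88, -1.08 and -1.75 and none was called (adjusted p = 0.313, 0.272 and 0.266, in a fit with 0 calls over all probe sets), and without Crebbp+/- arrays 1 and 3 they were -0.86, -1.05 and -1.67 (adjusted p = 0.265, 0.233 and 0.228, in a fit with 4 calls over all probe sets). After quantile normalization 1450883_a_at was at -1.22 and not called (adjusted p = 0.0622), nor was it with the 2 genotypes fitted alone (0.0504). Probe sets 1423166_at and 1450884_at kept their calls in both. Leaving out 1 array at a time kept the sign in all 12 fits. All 3109 probe sets gave 5, 9 and 7 calls without wild-type array 4, Crebbp+/- array 1 and Crebbp+/- array 2, against 192 with all arrays. The call of 1450884_at was lost in 3 of the 12, without wild-type array 4 (adjusted p = 0.0501), Crebbp+/- array 1 (0.0581) or Crebbp+/- array 2 (0.0503). For 1423166_at it was lost in 5, without wild-type array 2 (0.0627) or 4 (0.0669) or Crebbp+/- array 1 (0.0846), 2 (0.0641) or 3 (0.0504). For 1450883_a_at it was lost in 8, without any 1 wild-type array (0.0568, 0.0905, 0.0648 and 0.0912 for arrays 1 to 4), Crebbp+/- array 1 (0.120), 2 (0.0930) or 3 (0.0588), or Ep300+/- array 1 (0.0504).

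In Ep300+/- stroma Cd36 was lower than in wild type without overlap in all 3 probe sets, and no probe set in the table passed the adjusted test. The log2 differences were -0.69 ± 0.23 for 1450883_a_at (± SE, limma adjusted p = 0.841), -0.83 ± 0.25 for 1423166_at (adjusted p = 0.823) and -0.91 ± 0.29 for 1450884_at (adjusted p = 0.841). These correspond to 62.2%, 56.3% and 53.3% of the wild-type level. Each of the 3 had a two-sided exact permutation p of 0.0286. With the replicate number as a block their limma adjusted p was 0.239, 0.209 and 0.231, so none was called there either. In this comparison 2.16% of all probe sets were lower without overlap, 0% were called by limma, and 126 (4.05%) had a p below 0.05 before adjustment. The Ep300+/- and Crebbp+/- differences share the 4 wild-type arrays and are given side by side, not as separate support.

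Between the heterozygotes, Cd36 was not shown to differ. The log2 difference of Crebbp+/- from Ep300+/- was -0.28 (95% interval -0.78 to 0.22) for 1450883_a_at, -0.38 (-0.92 to 0.16) for 1423166_at and -0.78 (-1.40 to -0.16) for 1450884_at, with limma adjusted p of 0.515, 0.388 and 0.115. Each same-numbered pair had the lower value in Crebbp+/- stroma, for all 3 probe sets. The intervals of single probe sets are not adjusted for the number of probe sets tested. Without Crebbp+/- array 4 the difference at 1450884_at was -0.97 and was called (adjusted p = 0.0463).

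Fabp4, the fatty acid carrier that marks adipocytes and some macrophages and endothelium, ranged more widely between arrays of 1 genotype than between genotype means. Probe set 1417023_a_at read 13.92, 13.65, 13.29 and 12.17 in Crebbp+/- stroma, 13.80, 13.24, 13.89 and 11.05 in Ep300+/- stroma, and 14.34, 12.85, 12.04 and 11.68 in wild-type stroma. Array 4 was the lowest of each genotype and the groups overlapped throughout. The 4 Fabp4 probe sets disagreed with one another: 1417023_a_at and 1451263_a_at correlated at r = 0.946 over the 12 arrays, 1424155_at and 1425809_at at r = 0.902, and the lowest r among the 6 pairs was 0.212. Their log2 fold changes in Crebbp+/- stroma against wild type were 0.53, 0.22, 0.27 and 0.96 in that order, and none was called. For 1424155_at, Crebbp+/- array 3 read 10.72, against 7.02 to 8.49 on the other Crebbp+/- arrays.

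Among the genes of lipoprotein hydrolysis, Angptl4 was higher in Crebbp+/- stroma. It read 10.49, 10.29, 10.83 and 9.81 in Crebbp+/- stroma, 9.05, 9.12, 10.11 and 8.95 in Ep300+/- stroma, and 9.33, 9.23, 9.11 and 9.17 in wild-type stroma. The wild-type arrays were within 0.23 of each other, the 4 Crebbp+/- arrays all lay above them, and a single Ep300+/- array did. The means were 10.35 ± 0.43 in Crebbp+/- stroma, 9.31 ± 0.54 in Ep300+/- stroma and 9.21 ± 0.096 in wild-type stroma (SD, n = 4 each). The probe set carries the suffix _s_at, which in Affymetrix naming marks probes shared between transcripts, and the platform annotation gives it 1 symbol.

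Angptl4 rose in Crebbp+/- stroma by 1.14 on the log2 scale against wild type (SE 0.31, 95% interval 0.48 to 1.81, limma adjusted p = 0.0442), 2.21-fold. The two-sided exact permutation p was 0.0286, and 10.4% of all probe sets were higher without overlap. The call was near its threshold. It ended after quantile normalization (0.89, adjusted p = 0.0718) and after median centring (0.94, adjusted p = 0.0612), both of which also brought the median of all probe sets close to 0. It ended with the Eif2s3y covariate (0.81, adjusted p = 0.426) and without Crebbp+/- arrays 1 and 3 (0.84, adjusted p = 0.322). Of 12 fits that each left out 1 array, 3 kept it, those without Crebbp+/- array 4 (adjusted p = 0.0190), Ep300+/- array 3 (0.0192) or Ep300+/- array 4 (0.0410). It was lost without wild-type array 1 (0.0697), 2 (0.104), 3 (0.103) or 4 (0.131), Crebbp+/- array 1 (0.144), 2 (0.103) or 3 (0.107), or Ep300+/- array 1 (0.0641) or 2 (0.0660), while the difference stayed between 0.99 and 1.33.

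In Ep300+/- stroma the Angptl4 difference from wild type was 0.098 (95% interval -0.56 to 0.76, limma adjusted p = 0.980). It rested on array 3: without that array it was -0.17, and the other 3 Ep300+/- arrays each lay below their same-numbered wild-type array. Crebbp+/- stroma was 1.05 above Ep300+/- stroma (SE 0.31, 95% interval 0.38 to 1.71), with a limma adjusted p of 0.0602, so it was not called. In this comparison 0 of the 17 probe sets were called, beside 6.4% of all probe sets. With the replicate number as a block, a fit in which 24.4% of all probe sets were called, the adjusted p of Angptl4 was 0.0159, and each of the 4 pairs had the higher value in Crebbp+/- stroma. It was also called without Crebbp+/- array 4 (1.23, adjusted p = 0.0255), without Ep300+/- array 3 (1.31, adjusted p = 0.0158), without array 3 of both heterozygotes (1.16, adjusted p = 0.0357) and with 1 probe set per gene (adjusted p = 0.0451). It was 0.76 with the Eif2s3y covariate (adjusted p = 0.352) and 0.74 without Crebbp+/- arrays 1 and 3 (adjusted p = 0.302), and the 2 genotypes fitted alone gave an adjusted p of 0.154.

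Lpl, the enzyme that ANGPTL4 inhibits, did not separate the genotypes. Probe set 1415904_at read 13.16, 13.20, 13.31 and 12.01 in Crebbp+/- stroma, 13.17, 12.68, 13.20 and 12.89 in Ep300+/- stroma, and 13.44, 12.60, 12.61 and 12.19 in wild-type stroma. Crebbp+/- array 4 was the lowest of all 12 and wild-type array 1 the highest. The log2 difference of Crebbp+/- from wild type was 0.21 and that of Ep300+/- from wild type 0.28, and the second probe set, 1431056_a_at, gave 0.11 and 0.15, none of them called.

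**Figure D2:**
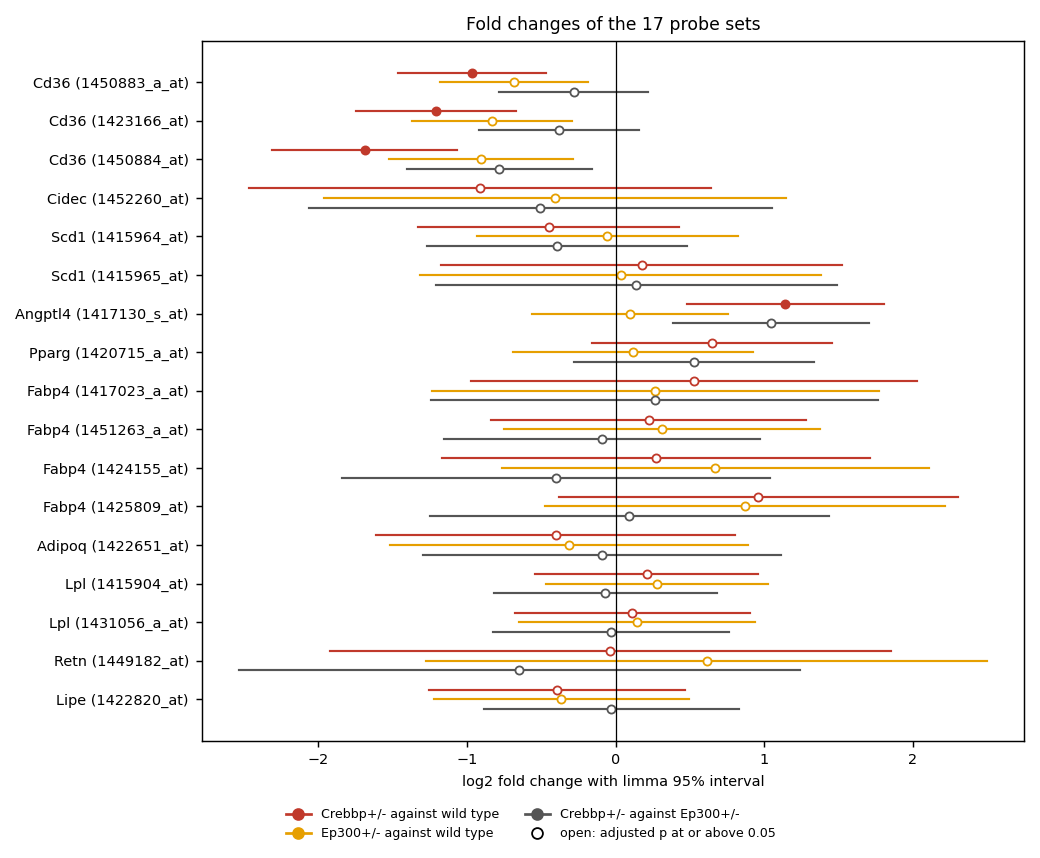
log2 fold change (x axis) of the 17 probe sets with limma's 95% interval, for Crebbp+/- against wild type (red), Ep300+/- against wild type (orange) and Crebbp+/- against Ep300+/- (grey); filled points had an adjusted p under 0.05. The filled points are the 3 Cd36 probe sets, between -1.69 and -0.97, and Angptl4 at 1.14, all in the first comparison.

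Pparg, the regulator of the programme, read 9.94, 9.86, 10.10 and 8.57 in Crebbp+/- stroma, 9.30, 9.05, 9.61 and 8.39 in Ep300+/- stroma, and 9.35, 8.92, 9.04 and 8.57 in wild-type stroma. Crebbp+/- arrays 1 to 3 were the 3 highest of the 12, and array 4 was level with wild-type array 4. The log2 difference of Crebbp+/- from wild type was 0.65 (SE 0.37, 95% interval -0.16 to 1.45, limma adjusted p = 0.278). The difference of Ep300+/- from wild type was 0.12 (-0.69 to 0.92, adjusted p = 0.980).

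Of the adipokines, Adipoq (adiponectin, made almost only by fat cells) read 12.24, 11.93, 12.44 and 10.19 in Crebbp+/- stroma, 12.27, 11.29, 12.74 and 10.87 in Ep300+/- stroma, and 12.94, 11.90, 12.33 and 11.25 in wild-type stroma. Array 4 was again the lowest of each genotype. Retn (resistin) read 6.50, 6.41, 5.96 and 4.74 in Crebbp+/- stroma, 8.20, 6.30, 7.50 and 4.21 in Ep300+/- stroma, and 8.13, 5.84, 5.20 and 4.58 in wild-type stroma. Its arrays of 1 genotype ranged over 1.76 log2 units in Crebbp+/-, 3.99 in Ep300+/- and 3.55 in wild-type stroma, while its genotype means spanned 0.65. The log2 differences from wild type were -0.40 for Adipoq and -0.035 for Retn in Crebbp+/- stroma, and -0.31 and 0.61 in Ep300+/- stroma, none of them called.

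Of the synthesis, storage and lipolysis genes, Cidec read 7.25, 5.86, 7.36 and 4.47 in Crebbp+/- stroma, 7.87, 6.11, 7.15 and 5.83 in Ep300+/- stroma, and 8.57, 6.24, 7.59 and 6.19 in wild-type stroma. Arrays 1 and 3 were high and arrays 2 and 4 low in each genotype. Crebbp+/- minus wild type within the same number was -1.33, -0.38, -0.23 and -1.72, lower in 4 of 4 pairs. The log2 difference of the means was -0.91 (SE 0.72, limma adjusted p = 0.435). In the fit blocked on replicate number its adjusted p was 0.0411. Without Crebbp+/- array 4 the difference was -0.32, and without wild-type array 1 it was -0.44.

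Scd1 and Lipe also ranged more widely between arrays of 1 genotype than between genotype means. Scd1 by 1415964_at read 12.83, 12.23, 12.76 and 11.96 in Crebbp+/- stroma, 13.66, 12.29, 12.88 and 12.51 in Ep300+/- stroma, and 13.86, 12.52, 13.03 and 12.16 in wild-type stroma. Its other probe set, 1415965_at, correlated with this one at r = 0.691, and the log2 differences of Crebbp+/- from wild type were -0.45 and 0.18. Lipe read 8.04, 7.25, 8.01 and 6.74 in Crebbp+/- stroma, 8.36, 7.17, 7.32 and 7.29 in Ep300+/- stroma, and 8.67, 7.33, 7.94 and 7.66 in wild-type stroma, a log2 difference of -0.39 for Crebbp+/- and -0.36 for Ep300+/-, neither called. The groups overlapped for both genes.

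**Figure D3:**
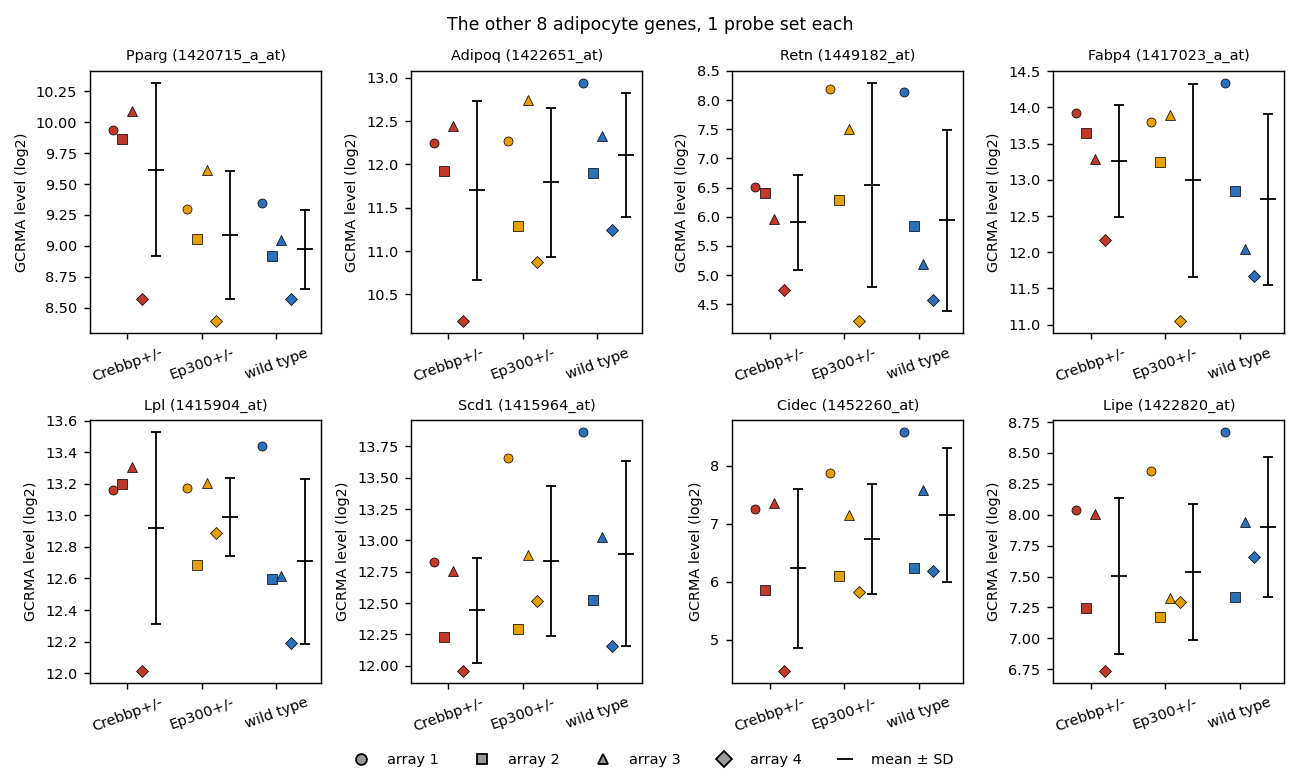
Level (GCRMA log2, y axis) of Pparg, Adipoq, Retn, Fabp4, Lpl, Scd1, Cidec and Lipe on each array of the 3 genotypes, 1 probe set per gene (the one with the highest mean); symbols give the array number and bars the mean ± SD of 4 arrays. The genotypes overlap in all 8 genes, and array 4 (diamond) is the lowest Crebbp+/- array in 8 of 8.

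These 8 genes moved together from array to array. Taken as deviations from the genotype means over the 12 arrays, all 28 pairs of them correlated positively, with r between 0.571 and 0.974 and a median of 0.788. Wild-type array 1 was the highest wild-type array for 8 of the 8 and Crebbp+/- array 4 the lowest Crebbp+/- array for 8 of the 8. The mean deviation of the 8 genes from their means over all arrays was 0.46, 0.027, 0.38 and -1.17 on the Crebbp+/- arrays, 0.81, -0.25, 0.52 and -0.89 on the Ep300+/- arrays, and 1.14, -0.25, -0.048 and -0.74 on the wild-type arrays. Averaged by genotype this was -0.073, 0.045 and 0.028 in the same order, a span of 0.12 log2 units. Within a genotype single arrays ran from -1.17 to 0.46, from -0.89 to 0.81 and from -0.74 to 1.14. All 12 arrays share one normalization. Array 4 of each genotype also had its lowest median over all probe sets, 8.15, 7.98 and 8.02 in the same order. The mean of the measured reticular and preadipocyte stroma markers was lowest on array 4 too, at 10.12, 9.44 and 10.05. Pairs of other genes were not correlated for comparison, so the array pattern is not shown to be particular to these 8 genes.

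Cd36 did not share that pattern: its deviations correlated negatively with those of each of the 8 genes, r from -0.635 to -0.210. Those of Angptl4 correlated positively with each of the 8, r from 0.288 to 0.775 with a median of 0.539. Cd36 and Angptl4 correlated with each other at r = -0.364 on deviations and at -0.670 on the plain levels, where genotype enters. These are descriptions over the 12 arrays.

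**Figure D4:**
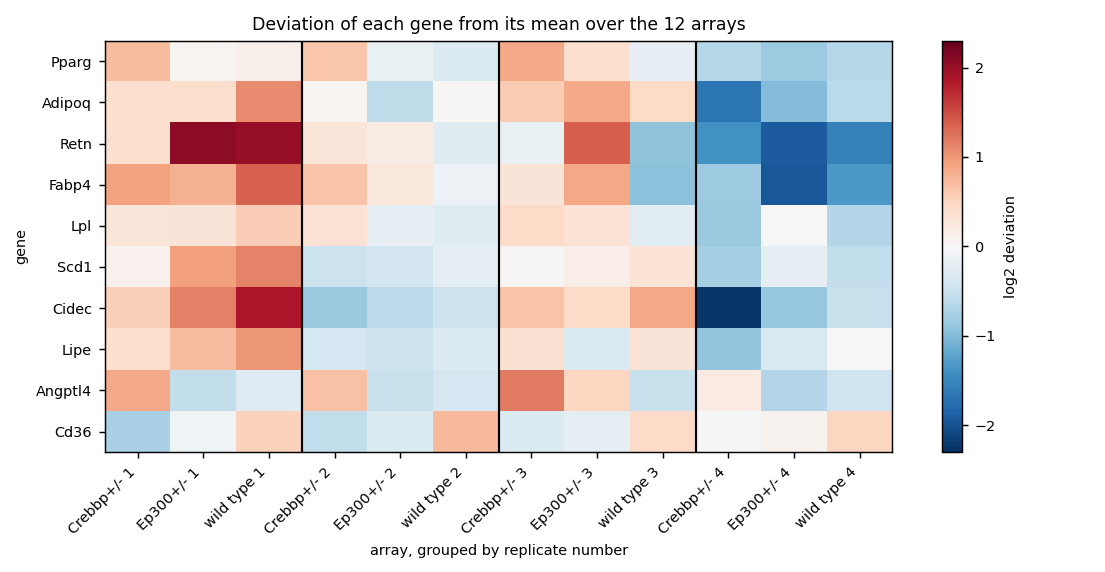
Deviation (log2, colour) of each of the 10 genes (rows) from its mean over all arrays, with the 12 arrays (columns) grouped by replicate number. The 8 upper genes are mostly above their mean on the arrays numbered 1 and below it on those numbered 4 in all 3 genotypes, and Cd36 in the bottom row is above its mean on the 4 wild-type arrays.

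By likeness of level over the 12 arrays, the 5 genes closest to Angptl4 outside the set were Oasl1 (Pearson r = 0.991), Rsad2 (0.969), Magi3 (0.963), Mmrn2 (0.958) and Rgs4 (0.957). Those closest to Cd36 were Mbp (0.917), Arhgap45 (0.912), Rnf128 (0.902), Ttc7 (0.897) and Kcnab2 (0.896). Genotype enters these values. On deviations from the genotype means r was 0.978, 0.941, 0.919, 0.865 and 0.860 for the genes closest to Angptl4. For those closest to Cd36 it was 0.745, 0.562, 0.858, 0.648 and 0.443, each in the order given. No gene was on both of these lists. Cidec, Scd1 and Lipe shared Thrsp (0.962, 0.912 and 0.947), a lipogenesis gene, and Cd1d1 among their 5, and Cidec, Adipoq and Lipe shared Rbp4, which encodes retinol-binding protein. Closest to Pparg was Slc5a3 (0.968), to Fabp4 Rarres2 (0.980), to Adipoq Steap4 (0.967), to Lpl Foxo1 (0.877) and to Retn Glul (0.885).

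Other genes of the pathway were mostly not called. The calls named for these lists and for the cell type markers were made in the fit without a block, and each ended with the Eif2s3y covariate and without Crebbp+/- arrays 1 and 3. Of 6 measured adipogenic regulators in a list of 29, 0 were called in any comparison, and the 2 of smallest p were Id2 and Med1, at 0.37 and 0.78 in Crebbp+/- stroma against wild type on the log2 scale; Med1, a subunit of the Mediator complex, was called with the replicate block (adjusted p = 0.0236). Ebf3 was at 0.99 in Crebbp+/- against Ep300+/- stroma and was called there with the replicate block (adjusted p = 0.0140). Of 22 genes of fatty acid synthesis and desaturation only Thrsp had a value, with a log2 difference of -0.59 in Crebbp+/- stroma against wild type (limma adjusted p = 0.723). Of 30 genes of triglyceride assembly, lipid droplets and lipolysis, 4 had a value and 0 were called. Hilpda, a lipid droplet protein that inhibits lipolysis, had log2 differences of 1.52 in Crebbp+/- stroma and 1.81 in Ep300+/- stroma, and the droplet protein Plin4 -0.41 and 0.18. With the replicate block Hilpda was called in Crebbp+/- stroma against wild type (adjusted p = 0.0453).

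Of 40 genes of fatty acid uptake, activation and oxidation, 7 had a value and 0 were called against wild type, with a median log2 difference of -0.62 in Crebbp+/- stroma beside 0.28 over all 1974 genes. Between Crebbp+/- and Ep300+/- stroma 2 of the 7 were called: Acsl3, which activates long-chain fatty acids, fell by 0.87 (adjusted p = 0.0380), and Cyp4b1, a fatty acid hydroxylase, rose by 2.10 (adjusted p = 0.0364). With the covariate they were at -0.89 and 1.32 (adjusted p = 0.241 and 0.324), and without Crebbp+/- arrays 1 and 3 at -0.92 and 1.38 (adjusted p = 0.211 and 0.257). Leaving out 1 array kept the call of Acsl3 in 3 and that of Cyp4b1 in 4 of 12 fits, with the highest adjusted p, 0.128 and 0.137, without Crebbp+/- array 1. Cyp4b1 read 4.24 to 5.22 in Ep300+/- and 4.52 to 5.77 in wild-type stroma, all below the log2 of 100, 6.64. These readings are near background, so the size of its rise is uncertain. It met the level bound of the table (3 or more arrays at 6.64) through Crebbp+/- arrays alone, which favoured a rise there beforehand. Against wild type neither Acsl3 nor Cyp4b1 was called without a block, and both were called with the replicate block, at -0.73 and 1.75 (adjusted p = 0.0242 and 0.0240). With that block the fatty acid transporter Slc27a1, at -0.62, and Lrp1, at -0.65, were called lower too (adjusted p = 0.0429 and 0.0323). In that fit 26.1% of all probe sets were called.

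Among 16 genes of lipoprotein lipase control and angiopoietin-like proteins, 3 had a value and 0 were called. Gpihbp1, which anchors lipoprotein lipase on capillary endothelium, had a log2 difference of 3.66 between Crebbp+/- and wild-type stroma (adjusted p = 0.0886) and of 4.36 between Crebbp+/- and Ep300+/- stroma (adjusted p = 0.0505). Its level averaged 8.04 in Crebbp+/- stroma (4.35 to 9.54), 3.68 in Ep300+/- stroma (3.04 to 4.46) and 4.37 in wild-type stroma (3.05 to 7.95). The Ep300+/- arrays all lay below the log2 of 100, 6.64, so these differences are set against readings near background and their size is uncertain. Angpt2, an endothelial ligand of TIE2, had 1.39 and 1.63 (adjusted p = 0.0933 and 0.0561). With the replicate block Gpihbp1 (adjusted p = 0.0191 and 0.0101) and Angpt2 (adjusted p = 0.0179 and 0.00990) were called in both comparisons. Of 19 adipokines and receptors, 6 had a value and 1 was called: Apln, the peptide apelin, rose in Crebbp+/- stroma by 1.84 against wild type (adjusted p = 0.0242) and by 2.38 against Ep300+/- stroma (adjusted p = 0.0125). With the covariate Apln was at 1.47 and 2.05 (adjusted p = 0.327 and 0.176), and without Crebbp+/- arrays 1 and 3 at 1.48 and 2.01 (adjusted p = 0.246 and 0.172). Leaving out 1 array kept the call in 6 of 12 fits against wild type and in 10 of 12 against Ep300+/- stroma, and the adjusted p was highest without Crebbp+/- array 1 (0.101 and 0.0574).

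Of the other inputs to Angptl4, the 7 measured hypoxia targets of 20 and the 5 measured glucocorticoid targets of 14 had 0 called in each comparison in the fit without a block. The median log2 difference of the hypoxia targets was 0.47 in Crebbp+/- stroma against wild type, beside 0.28 over all genes, and 0.53 against Ep300+/- stroma, beside 0.082 over all genes, with 6 of 7 positive in each. Against wild type they ran from -0.094 to 0.67. P4ha1, a collagen prolyl hydroxylase subunit, was at 0.86 against Ep300+/- stroma and was called there with the replicate block (adjusted p = 0.0338). The glucose transporter Slc2a1 was at 0.13 against wild type and 0.53 against Ep300+/- stroma, and Mxi1 at 0.47 and 0.69. The glucocorticoid targets had medians of -0.16 and 0.077 in these comparisons, with Errfi1 at 0.46 and 0.67 and the metallothionein Mt2 at -0.45 and -1.06.

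Markers of other cell types that the layer can hold were compared in the same fit. Of 18 endothelial markers, 16 had a value. In Crebbp+/- stroma 9 were called higher than in wild type, beside 5.02% of all probe sets, and 14 higher than in Ep300+/- stroma, beside 152 of all 3109. In Ep300+/- stroma 0 were called against wild type. Both counts were 0 with the Eif2s3y covariate and 0 without Crebbp+/- arrays 1 and 3, and 15 and 16 with the replicate block. With that block, 544 and 595 of all 3109 probe sets were called higher in these 2 comparisons. The median log2 difference of the 16 was 2.03 against wild type and 2.19 against Ep300+/- stroma, and 1.46 and 1.70 without those arrays. Against wild type the count was 0 without wild-type array 4 or Crebbp+/- array 1 or 2, 2 without wild-type array 2 or 3 or Crebbp+/- array 3, and 15 without Crebbp+/- array 4. Against Ep300+/- stroma the marker count was 0 without Crebbp+/- array 1 or Ep300+/- array 1, 4 without Crebbp+/- array 2, 5 without Ep300+/- array 4 and 8 without Crebbp+/- array 3, and it was 8 with the 2 genotypes fitted alone and 8 without array 3 of both heterozygotes. Over all probe sets the calls higher in these fits were 6, 1, 30, 48, 103, 45 and 96 in that order. Their mean level was 9.62, 9.31, 9.55 and 7.58 on the Crebbp+/- arrays, 6.58, 6.94, 7.27 and 6.25 on the Ep300+/- arrays, and 8.07, 6.81, 6.92 and 6.82 on the wild-type arrays, and the lowest single marker value was 3.28. Kdr, Erg and Icam2 lay below the log2 of 100, 6.64, on all Ep300+/- and wild-type arrays. They met the level bound of the table through Crebbp+/- arrays alone, so their direction was favoured beforehand. Erg is counted in the 9, and Kdr, Erg and Icam2 are counted in the 14. Tie1 and Cldn5, also counted in the 14, lay below 6.64 on all Ep300+/- arrays. They met the level bound without any Ep300+/- array, so their direction against Ep300+/- stroma was favoured beforehand too. Crebbp+/- arrays 1 to 3 were highest in both the endothelial mean and Angptl4. Wild-type array 1 had a higher endothelial mean than Crebbp+/- array 4 and a lower Angptl4 level, 9.33 against 9.81. The part of these cells in the Angptl4 difference was not tested.

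Macrophage markers had a mean level of 12.09 to 12.80 on the Crebbp+/- arrays, 12.08 to 12.73 on the Ep300+/- arrays and 12 to 12.18 on the wild-type arrays, from 5 measured genes of 21. Among them Cd163 rose by 1.18 in Crebbp+/- stroma against wild type (adjusted p = 0.0228), was at 1.06 with the covariate (adjusted p = 0.284), 1.12 without Crebbp+/- arrays 1 and 3 (adjusted p = 0.233) and 0.84 after quantile normalization (adjusted p = 0.176), and kept its call in 6 of 12 fits that left out 1 array. The other macrophage markers went both ways against wild type, with Cd14 at 0.69, Fcgr1 at 0.56, Marco at -0.13 and Gpnmb at -0.81, none called without a block. With the replicate block Fcgr1 was called higher (adjusted p = 0.0393) and Gpnmb lower (adjusted p = 0.0285). Fcgr1 was also called between the heterozygotes with the block (0.64, adjusted p = 0.0240). None of the 5 was below 10.21 on any array. The 7 measured reticular and preadipocyte stroma markers of 16 had 0 called and a mean level of 10.12 to 10.57 on the Crebbp+/- arrays, 9.44 to 10.21 on the Ep300+/- arrays and 10.05 to 10.53 on the wild-type arrays, with Col1a2 at -1.42 and Col3a1 at 0.68 in Crebbp+/- stroma against wild type. With the replicate block Col1a2 was called there (adjusted p = 0.0346), and Col3a1, at 1.15, between the heterozygotes (adjusted p = 0.0292). Col1a2 lay below the log2 of 100, 6.64, on all heterozygote arrays. It met the level bound of the table through wild-type arrays alone, so a fall was favoured beforehand and its size is uncertain. The 3 measured osteoblast markers of 12 had a mean level of 8.24 to 8.87 on the Crebbp+/- arrays, 8.84 to 9.89 on the Ep300+/- arrays and 9.46 to 9.98 on the wild-type arrays. Ibsp, bone sialoprotein, fell in Crebbp+/- stroma, with log2 differences of -1.75 against wild type (adjusted p = 0.0293) and -1.67 against Ep300+/- stroma (adjusted p = 0.0321). With the covariate these were -1.49 and -1.44 (adjusted p = 0.346 and 0.252), and without Crebbp+/- arrays 1 and 3 -1.50 and -1.42 (adjusted p = 0.264 and 0.223). The calls were kept in 6 and 5 of 12 fits that left out 1 array, with the highest adjusted p, 0.112 and 0.124, without Crebbp+/- array 1. Another osteoblast marker, Alpl, was at -1.03 against wild type and was called lower there with the replicate block (adjusted p = 0.0322). The part of these cells in the Cd36 difference was not tested.

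**Figure D5:**
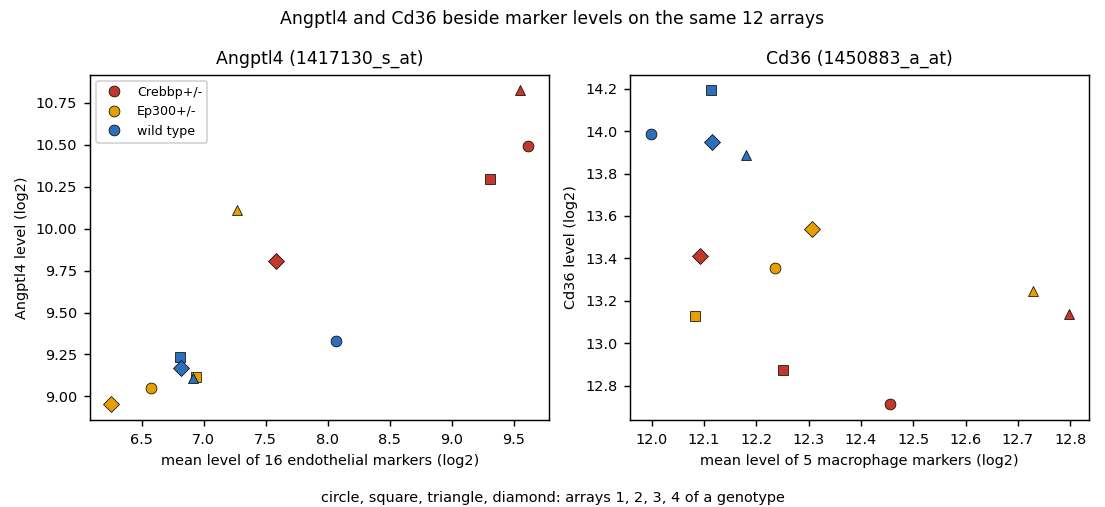
Left, Angptl4 level against the mean level of 16 endothelial markers; right, Cd36 level (1450883_a_at) against the mean level of 5 macrophage markers, all in log2, with 1 point per array, colour for genotype and symbol for array number. Crebbp+/- arrays 1 to 3 lie at the upper right of the left panel, and in the right panel the 4 wild-type arrays lie at the top, with macrophage means of 12 to 12.18.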

How the data were processed

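The deposited values are log2 expression levels of Affymetrix probe sets, made by the authors with GCRMA per the submitters' processing notes, which give no version. GCRMA corrects background by probe sequence, normalizes the arrays to one another and summarizes probes, so levels of different probe sets cannot be compared. The table held 3127 probe sets, of which 18 controls were left out. The interquartile range was 0.5001 or more for each, with 3 or more arrays at or above the log2 of 100, a filter read from the values. Of the 3109 tested, 2486 had 1 platform symbol (1974 genes), 176 had several and 447 none; genes were named from the first kind only.

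No further normalization was applied. Genotypes were compared by lmFit and eBayes of limma 3.58.1 under R 4.3.3 (1 fit over 12 arrays, a mean per genotype), two-sided, with Benjamini-Hochberg adjustment over 3109 probe sets and a call under 0.05. The script was tested on simulated data. Exact permutation tests used scipy 1.17.1. The number of arrays limits the precision.

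The labels give each genotype replicates 1 to 4. Same-numbered deviations from the genotype means correlated at r of 0.448 to 0.603 between Crebbp+/- and wild type and 0.294 to 0.513 between the heterozygotes, over 0.1 for every pair, so the numbers were taken to pair these. The labels do not say what a number stands for. The main fit and the exact permutation tests left the pairs out, so their p-values ignore that pairing. Calls with the replicate number as a block are given beside them. Every probe set of the members was described. Outside them, genes were named by likeness (5 per member), or within each list those called, or else the 2 of smallest p. List genes whose call the replicate block changed were named too, except endothelial markers, which were counted. The measured macrophage markers were all named. The members and gene lists were chosen with earlier results of these data known.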

Additional observations from a re-analysis of the deposited data

Results flagged for a closer look

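Of 51 groups of 4 arrays (17 probe sets in 3 genotypes), 4 held an array whose gap to its nearest neighbour exceeded Dixon's 95% critical value, and chance gives about 1 in 20. Angptl4 stood at 10.1 on Ep300+/- array 3, above the other 3 Ep300+/- arrays. Pparg stood at 8.57 on Crebbp+/- array 4, below the other 3, and Lpl (1415904_at) at 12 on the same array. Lipe stood at 8.36 on Ep300+/- array 1, above the other 3.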

How the results depend on the processing

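Against the 4 member probe sets called in Crebbp+/- stroma versus wild type, 2 were called after quantile normalization, 2 with 1 probe set per gene (fewer probe sets enter), 0 with Eif2s3y as a covariate and 0 without Crebbp+/- arrays 1 and 3 (fewer samples); leaving out 1 array gave 0 to 4. For the last 2 of these settings all 3109 probe sets gave 0 and 4 calls, against 192. Between Crebbp+/- and Ep300+/- stroma the count of 0 member calls became 1 with the replicate block, 1 with 1 probe set per gene and 1 without array 3 of both heterozygotes, and leaving out 1 array gave 0 to 2; the cause was not tested. In Ep300+/- stroma against wild type it was 0 in every setting run. Blocking on the replicate number, all probe sets gave 812 calls in Crebbp+/- stroma against wild type and 760 against Ep300+/- stroma, where the unblocked fit gave 192 and 199; apart from Cidec and Angptl4, given with the results, the block changed no other member's call, and its changes among the named list genes stand beside them. Between Ep300+/- and wild type the same-numbered r was 0.534, 0.345, 0.0593 and 0.683 for numbers 1 to 4. Number 3 was under 0.1, so the rule did not take these as paired, although pairing each with Crebbp+/- implies it. The block gave 1 call there, where the unblocked fit gave 0. Fitting 2 genotypes alone gave 51 calls between the heterozygotes, against 199, the Eif2s3y covariate 0 and leaving out Crebbp+/- arrays 1 and 3 gave 2. Of 367 member values recomputed per comparison, 37 lost and 1 gained a call in Crebbp+/- stroma against wild type, 6 gained one between the heterozygotes, and no called value changed sign. Of 699 values recomputed for Crebbp and the called genes of the lists, 265 lost the call and 0 changed sign. The settings that left out Crebbp+/- arrays 1 and 3, or array 3 of both heterozygotes, and all settings for list genes, were chosen after seeing the data.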
